A study of Mus musculus with 4 samples.

Results

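The 32 genes described here encode scaffold proteins, kinases and trafficking factors of the postsynaptic side of the synapse. They were listed by symbol, without receptors or adhesion molecules, and all 32 were found among the 32681 genes of the deposited table. The RNA came from 4 primary neuron cultures of CD-1 mouse neocortex taken at embryonic day 13 from wild-type animals. In the control group, 2 cultures were transfected with control shRNA (short hairpin RNA). In the other group, 2 cultures were transfected with DcpS shRNA, directed at the scavenger decapping enzyme that hydrolyses the cap left over from mRNA decay. Both groups thus shared strain, stage, medium and transfection. Transfection need not reach every cell, the labels name a single DcpS shRNA without its sequence, and they do not state whether the cultures were prepared from different litters. All p-values therefore describe the spread among these 4 libraries only, part of which may be technical.

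At an excitatory synapse the postsynaptic density holds glutamate receptors in place through layers of scaffold proteins. Membrane-associated guanylate kinases of the DLG family bind receptor tails, DLGAP (SAPAP) proteins link them to SHANK proteins, and HOMER proteins join SHANK to metabotropic receptors and the actin cytoskeleton. The kinase CaMKII and regulators of small GTPases act on this assembly, GRIP, PICK1 and NSF move AMPA receptors in and out of the membrane, and gephyrin is the matching scaffold at inhibitory synapses.

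Library depth was 17754768 to 21793685 recovered reads. Between replicates, gene counts differed more in the DcpS shRNA pair than in the control pair (chi-square per degree of freedom 4.03 against 2.15). The 32 genes summed to 101% of their control mean in DcpS shRNA 1 and 95.2% in DcpS shRNA 2. A count of 0 in a library allows up to 3 reads, or 0.138 to 0.169 CPM (reads scaled to a common library total), which covers counting error only. Dcps, the targeted gene, read 499.8 and 506.6 in control 1 and 2 and 114.5 and 119.6 in DcpS shRNA 1 and 2, in reads normalised by library, and so was at 23.3% of its control mean. The 12 pan-neuronal markers, among them Tubb3 and Map2, summed to 103224 and 101931 normalised reads in the control libraries against 99926 and 98776. Of these markers 1 was called higher, Rbfox3 (118% of its control mean). The 2 called lower were Snap25 (83.7%) and Syt1 (85.6%), while the abundant Tubb3 and Map2, which weigh more on the sum, were not called. Of 12 meningeal fibroblast and matrix markers 10 were called lower, and their sum was 19735 and 21053 against 12773 and 12276. Of 11 tested astrocyte markers 6 were called lower and 1 higher, with sums of 14517 and 14598 against 13429 and 13526. The median log2 fold change of these 11 was −0.45, and the sum weighs most on abundant markers such as Aldoc, which was called higher. Endothelial and mural markers summed to 802 and 879.9 against 541 and 504, with 3 of the 8 tested markers called lower. The sums of the microglia list, 281 to 306 against 311 to 348, and of the radial glia, interneuron and oligodendrocyte lists lay between 95.8% and 118% of their control means in every library. These sums can hide single genes. Called higher were Laptm5 (microglia), Nes (radial glia), Npy (interneuron) and Mbp (oligodendrocyte). Called lower were Hopx (radial glia) and Pdgfra (oligodendrocyte, also in the meningeal list). The median log2 fold change of the tested oligodendrocyte markers was −0.19. No marker of any list was at 0 in all 4 libraries. The part of these shifts in the results below was not tested, and in bulk RNA fewer cells of a type and less RNA per cell cannot be told apart.

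With DcpS shRNA, 5 of the 32 genes changed. Dlg2, the scaffold PSD-93, rose to 136% of its control mean, Dlgap3, a SAPAP linker, to 133%, and Iqsec1, an exchange factor for ARF GTPases, to 119%. Kalrn, a guanine nucleotide exchange factor of dendritic spines, fell to 83.7% and Grip1, an AMPA receptor scaffold, to 82.2%. The other 27 genes, which include every SHANK, HOMER and CaMKII gene and gephyrin, did not pass the test. A gene was called when the limma test on log2(normalised read count + 1) gave a Benjamini-Hochberg adjusted p under 0.05 over all 18110 genes tested, and all 32 genes passed the filter on low counts.

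The 3 higher calls compare with 2.14% of all genes tested called higher, and the 2 lower calls with 3.65% called lower. Together the 5 calls are 15.6% of the 32 genes, beside 5.79% of all genes. All genes tested include many with few reads, and no share in this paragraph was matched for read number. With a mean of at least 50 normalised reads required, which leaves out Dlgap2, limma called 1032 of 13686 genes, the same 5 among them. Without DcpS shRNA 1 the calls were 1 higher and 5 lower. They were 3 higher and 0 lower without control 1, 2 and 0 without control 2, and 3 and 0 without DcpS shRNA 2, with 4, 4 and 5 lower genes at an unadjusted limma p under 0.05. DESeq2 called 1 higher and 1 lower, and edgeR the same 5 genes as limma. The 32 genes had no common direction: 14 fold changes were above 0 and 18 below, and their median was −0.02 on the log2 scale, beside 0.00074 over all genes tested. In 8 of them both DcpS shRNA libraries lay above both controls (24.4% of all genes) and in 13 both lay below (24% of all genes). Together these 21 are 65.6% of the 32, beside 48.4% of all genes. An unadjusted limma p under 0.05 was seen for 13 genes, or 40.6%, beside 18.7% of all genes.

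**Figure D1:**
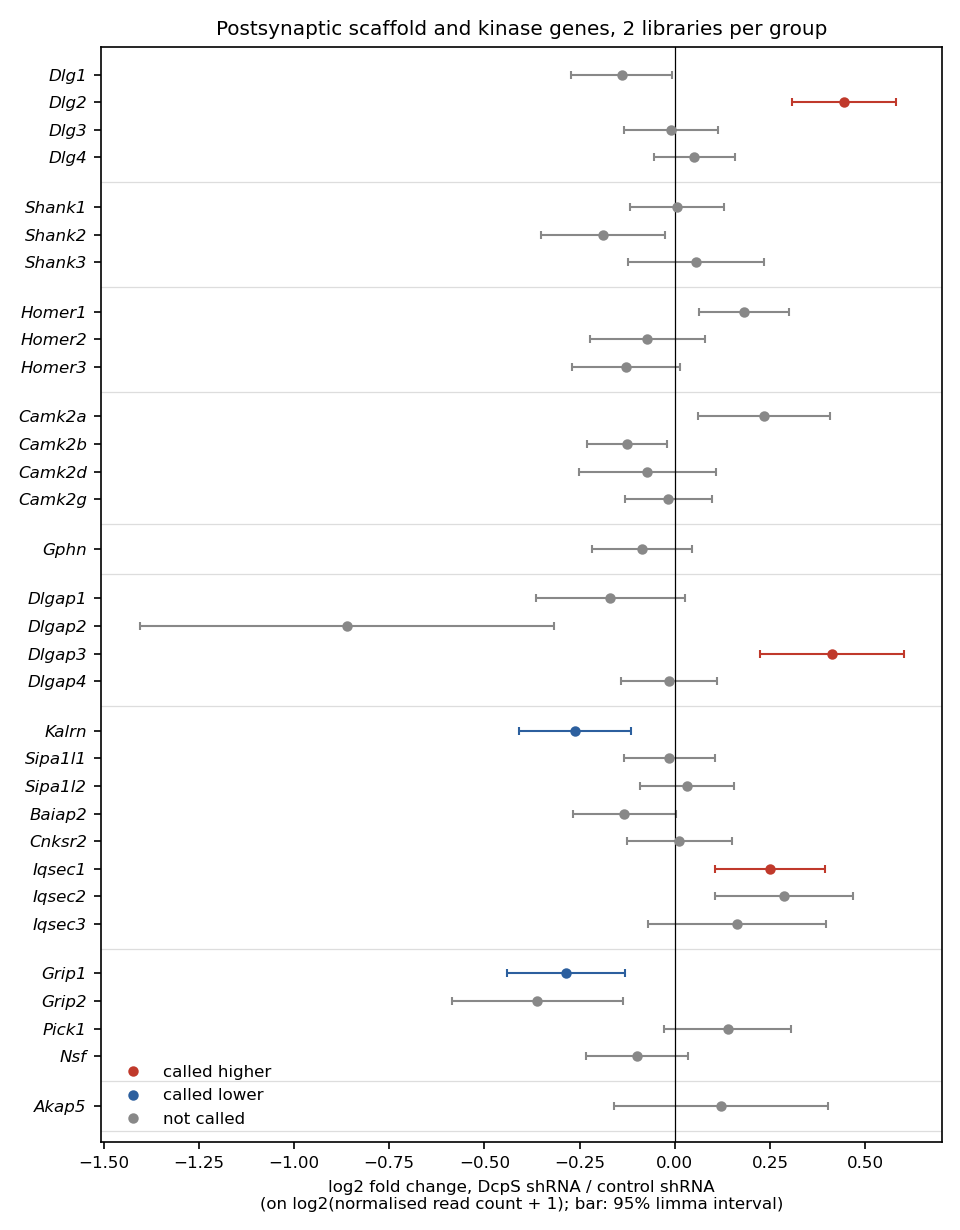
Log2 fold change of DcpS shRNA over control shRNA for the 32 genes, grouped by role, from limma on log2(normalised read count + 1) with 2 libraries per group; bars are 95% intervals of the fit. Red points were called higher (Dlg2, Dlgap3, Iqsec1), blue points lower (Kalrn, Grip1), and the wide interval of Dlgap2 goes with its low count.

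Of the 32 genes, 6 carried in an annotated 3′ UTR a 7-base word, ACGTGCA or CACGTGC, that is also in the Dcps transcript. An earlier analysis of these data had singled out these words among the lower genes; only the transcript strand was searched here, and the 2 words overlap by 6 bases. In this scan 8.0% of 13709 tested genes held a word, against 33.1% of 646 scanned genes called lower and 6.25% of 368 called higher. Since the words were picked among the lower genes of these same data, the share in the lower genes is not independent of that choice. It is given for description only, and the shares were not matched for 3′ UTR length. The 32 genes have longer 3′ UTRs than most, with a median of 2185 bases for the longest annotated one against 1228 over all genes scanned. The sites of these 6 genes are shown to set them beside the Dcps site, with a word in capitals. The capitals mark ACGTGCA in Dlgap2 and Shank2 and CACGTGC in the other lines. Dcps and Homer2 hold both words, so the capitals of Dlgap2 and Shank2 do not line up with those of Dcps. They are DNA letters of GENCODE M21 transcripts on GRCm38, written 5′ to 3′.

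Dcps: actatcacctgCACGTGCatttcacagctc
Dlgap2: ttatatatgttACGTGCAttctcagactgc
Shank2: cgactcctgtgACGTGCAtcggagcttctt
Homer2: aacttagacctCACGTGCagccaggtgcgt
Dlg1: ctcccatgggaCACGTGCcaggactaacca
Camk2b: tgcatgggcccCACGTGCtaacctggctgt
Iqsec1: tcccctggggcCACGTGCtgcccatgttcc

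In Dcps, CACGTGC lies at chr9:35124757-35124763 and ACGTGCA at chr9:35124756-35124762 (minus strand). Both fall in the 3′ UTR of transcript Dcps-202 and upstream of the 3′ UTR in Dcps-201. Coordinates below are those of the capitals. The stretch shared with the Dcps transcript around the word was 9 bases long in Dlgap2 (chr8:14847533-14847539, plus strand), 8 in Shank2 (chr7:144421646-144421652, plus strand) and 8 in Homer2 (chr7:81606452-81606458, minus strand). It was 7 bases, the word alone, in Dlg1 (chr16:31872377-31872383, plus strand), Camk2b (chr11:5971382-5971388, minus strand) and Iqsec1 (chr6:90661072-90661078, minus strand). The word was not in every transcript: 1 of 3 scanned transcripts held it in Dlgap2, 3 of 4 in Shank2, 1 of 3 in Homer2, 4 of 6 in Dlg1, 3 of 10 in Camk2b and 1 of 2 in Iqsec1. Of these 6 genes, 5 had a fold change below 0, none of them called, and Iqsec1 was called higher. Neither gene called lower, Kalrn or Grip1, held a word in its annotated 3′ UTR. The part of the word in the fold changes was not tested.

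Levels of different genes are compared here as normalised reads per kb of annotated exon. The length joins all annotated exons of a gene, whichever transcripts the cultures made, and ranks and shares per kb depend on it. It was 22493 bases for Camk2d, beside 6401 for Camk2g and 9125 for Camk2b, and 3440 for Homer3, beside 11976 for Homer1. Camk2b, the beta subunit of CaMKII, had the highest of the 32 (mean 572 per kb over the 4 libraries), followed by Dlgap4 (542), Sipa1l2, a RapGAP (414), Camk2g (342) and Dlg4, which encodes PSD-95 (322). The lowest were Dlgap2 (5.88 per kb), Camk2d (18.7) and Iqsec3 (22.3), although Camk2d had more normalised reads than Iqsec3 (means 421 and 302). The range over the 32 genes was thus far wider than any change with DcpS shRNA. Camk2a, the alpha subunit that becomes the main one in the mature forebrain, stood at 75.6 per kb, below Camk2b in every library.

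**Figure D2:**
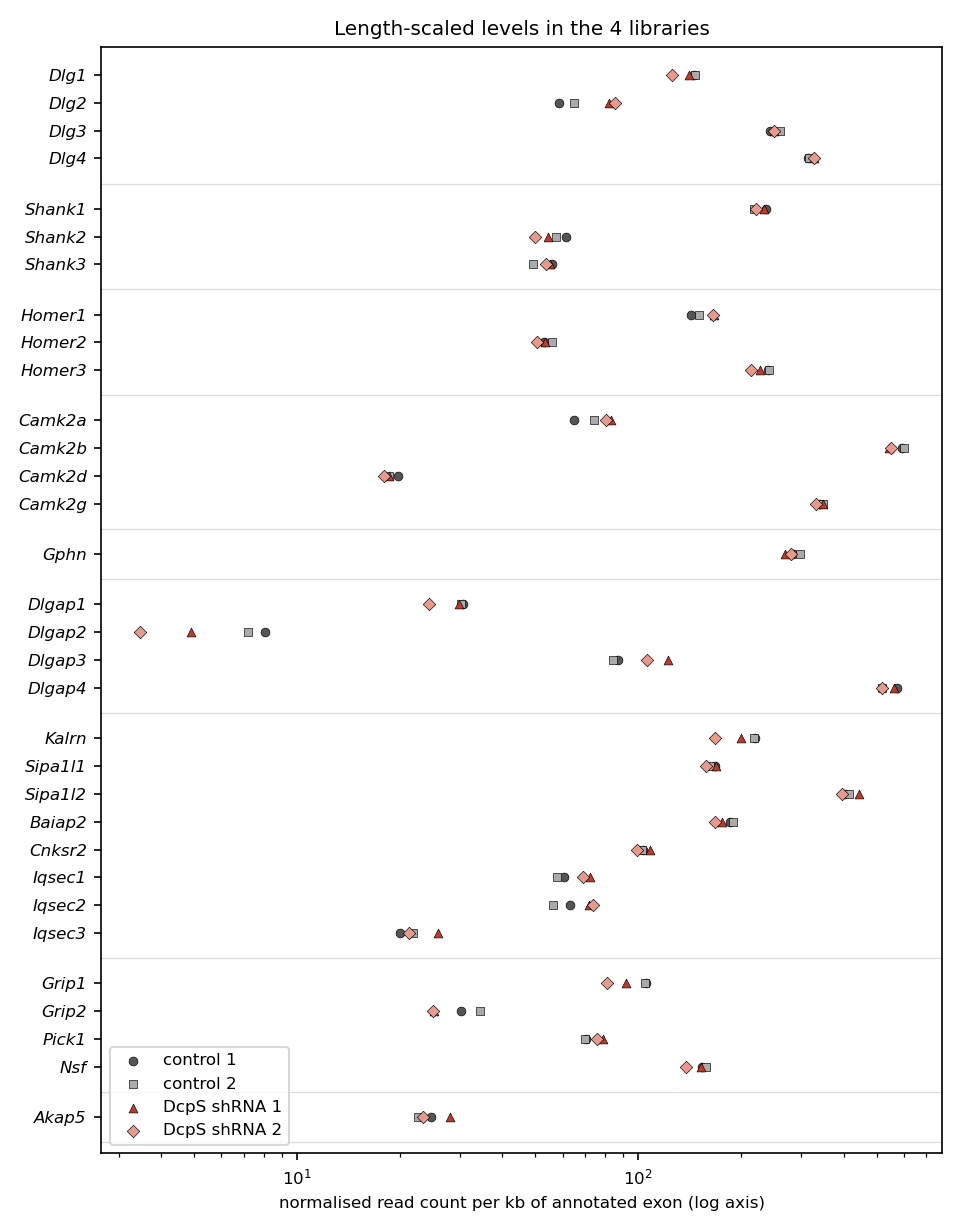
Normalised read count per kb of annotated exon (log axis) for the 32 genes in each library, grouped by role; circles and squares are control 1 and 2, triangles and diamonds DcpS shRNA 1 and 2. Camk2b and Dlgap4 are highest, Dlgap2 is lowest, and the 4 libraries of a gene mostly lie close together.

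Among the DLG scaffolds only Dlg2 (chr7:90476672-92449247, plus strand) was called. Its controls read 954 and 1056, and the DcpS shRNA libraries 1336 and 1395, in normalised reads. Both DcpS shRNA libraries were above both controls by more than the spread within either group (means 1005 ± 72.4 and 1366 ± 41.1, SD, n = 2 each). The log2 fold change was 0.44 (SE 0.06, 95% interval 0.31 to 0.58; limma, Benjamini-Hochberg adjusted p 0.000501). This call held in all 14 alternatives, with fold changes of 0.37 to 0.52 and adjusted p up to 0.0038. In the controls Dlg2 made up 7.95% of the length-scaled DLG reads, and with DcpS shRNA 10.6%.

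Dlg4, the most abundant DLG gene per kb, read 4174 and 4202 against 4340.2 and 4335. The DcpS shRNA libraries were slightly higher, without overlap, and the fold change of 0.05 had a 95% interval of −0.06 to 0.16. Dlg3, the gene of SAP102, which is prominent early in development, overlapped between groups (1425 and 1521 against 1461 and 1462) with a fold change of −0.01 (interval −0.13 to 0.11). Dlg1, the gene of SAP97, read 1567 and 1575 in control 1 and 2, and 1509 and 1347 in DcpS shRNA 1 and 2. Its fold change of −0.14 was not called (limma, Benjamini-Hochberg adjusted p 0.24), but it was without DcpS shRNA 1 (0.0249).

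Of the 4 DLGAP linkers, Dlgap3 was called higher and Dlgap2 had the lowest value against control. Dlgap3 (chr4:127169204-127237022, plus strand) read 393 and 380.5 in control cultures, against 553 and 479. Both DcpS shRNA libraries were higher, although they differed from each other more than the controls did (means 387 ± 9.12 and 516 ± 52.3, SD, n = 2 each). Its fold change was 0.41 (SE 0.09, interval 0.22 to 0.60; limma, Benjamini-Hochberg adjusted p 0.0108). The call ended without DcpS shRNA 1 (0.0690) and with DESeq2 (0.0666).

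Dlgap2 had the largest fold change of the 32 genes and was not called. It read 49.4 and 44.1 in control cultures, against 30.0 and 21.2, from 52, 43, 33 and 19 recovered reads. All DcpS shRNA values were below the controls, at a mean of 54.8% of control, but with so few reads the interval was wide: the fold change was −0.86 (SE 0.26, interval −1.41 to −0.32; limma, Benjamini-Hochberg adjusted p 0.0618). It passed without an expression filter (0.0495), without DcpS shRNA 1 (0.0208) and with a replicate block, the set number of the titles as a second term, in limma (0.0173) and edgeR (0.0312). Dlgap1 read 547 and 539 against 534 and 437, a fold change of −0.17 (interval −0.36 to 0.03) that passed without DcpS shRNA 1 (limma, Benjamini-Hochberg adjusted p 0.0402). Dlgap4, which made up 81.5% of length-scaled DLGAP reads in the controls and 78.8% with DcpS shRNA, overlapped between groups (4844 and 4371 against 4740.0 and 4373).

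None of the 3 SHANK genes, the scaffolds that tie the layers of the postsynaptic density together, was called by limma, edgeR or DESeq2, and 1 had an unadjusted limma p under 0.05. Shank1 had the highest level per kb and read 2493 and 2291 in control cultures, against 2465 and 2334. The groups overlapped, and the fold change of 0.01 had an interval of −0.12 to 0.13. Shank3 also overlapped, at 513 and 453 against 508 and 494 (0.05, interval −0.12 to 0.23). Shank2 was lower in both DcpS shRNA libraries, 585 and 536 against 659 and 618, with a fold change of −0.19 (interval −0.35 to −0.03; limma, Benjamini-Hochberg adjusted p 0.193).

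Of the HOMER genes, whose products form tetramers that cross-link SHANK and metabotropic glutamate receptors, none was called by limma, edgeR or DESeq2 with group as the only term, and 1 had an unadjusted limma p under 0.05. Homer1 was nearest: 1707 and 1806 in the controls against 1999 and 1985 with DcpS shRNA. The DcpS shRNA libraries were both higher, with a fold change of 0.18 (SE 0.06, interval 0.06 to 0.30; limma, Benjamini-Hochberg adjusted p 0.0684). It passed in 1 of the 14 alternatives, limma with the replicate block (0.0390). Homer1 also makes a short form induced by activity, and counts per gene do not separate it from the long form. Homer3, the HOMER gene with the highest level per kb, read 829 and 832 against 785 and 735, and Homer2, which overlapped, read 669.9 and 706 against 671 and 637; their fold changes were −0.13 and −0.07. Exons of Homer3 overlap those of Ddx49 on the other strand, which read 664 to 709 in the controls and 596 in each DcpS shRNA library, and without strand in the counting, reads of the pair would be mixed. Exons of Shank1, Shank3, Homer2, Gphn, Dlgap1, Dlgap4 and Iqsec1 also overlap an antisense gene, and those of Dlg2 and Pick1 a gene on the same strand. Where the table lists these partners they read at most 145, that of Gphn being the highest.

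No CaMKII gene was called by limma, edgeR or DESeq2 with group as the only term, and 2 of the 4 had an unadjusted limma p under 0.05. Camk2b read 5407 and 5484 in control cultures, against 4954 and 5028. Both DcpS shRNA libraries were lower, and the fold change was −0.13 (interval −0.23 to −0.02; limma, Benjamini-Hochberg adjusted p 0.176). Camk2a lay the other way, at 485 and 554 against 619.6 and 600.1, with a fold change of 0.23 (interval 0.06 to 0.41; adjusted p 0.117, limma) that passed only in limma with the replicate block (0.0474). Within the length-scaled CaMKII reads the share of Camk2a was 6.75% in the controls and 8.28% with DcpS shRNA, and that of Camk2b 57.9% and 55.4%. Camk2g (2178 and 2232 against 2223 and 2132) overlapped between groups with a fold change of −0.02, and Camk2d (445 and 419 against 418 and 403) had one of −0.07.

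Among regulators of small GTPases and actin linkers, Kalrn was lower and Iqsec1 higher. Kalrn (chr16:33969073-34573532, minus strand) read 5300.0 and 5259.9 in control cultures, against 4808 and 4034. The controls were close to each other (SD 28.4) and the DcpS shRNA libraries were not (SD 547), although both were lower. The fold change was −0.26 (SE 0.07, interval −0.41 to −0.11; limma, Benjamini-Hochberg adjusted p 0.0378). The size of the fall rested on DcpS shRNA 2: without it the fold change was −0.14 (0.0945), and without DcpS shRNA 1 it was −0.39. The call also ended without control 1 (0.124) or control 2 (0.108).

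Iqsec1 (chr6:90656088-90988685, minus strand) read 705 and 672 in control cultures, against 839 and 799. Both DcpS shRNA libraries were higher (means 688 ± 23.5 and 819 ± 28.0, SD, n = 2 each), with a fold change of 0.25 (SE 0.07, interval 0.10 to 0.40; limma, Benjamini-Hochberg adjusted p 0.0419). The call ended without control 1 (0.0753), control 2 (0.264) or DcpS shRNA 1 (0.122), and with DESeq2 (0.280). Its relative Iqsec2, an X-linked ARF exchange factor, lay the same way at 439.9 and 394 against 501 and 515, with a fold change of 0.29 (interval 0.11 to 0.47). Iqsec2 was not called (limma, Benjamini-Hochberg adjusted p 0.0611) but was without control 1 (0.0460) and with the replicate block in limma (0.0177) and edgeR (0.0391). Iqsec3, found at inhibitory synapses, overlapped between groups at 273 and 296 against 352 and 288.

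The other 4 genes of this group were not called by limma, edgeR or DESeq2, and none had an unadjusted limma p under 0.05. Sipa1l2, the most abundant of the group per kb, read 3891 and 3984 against 4268 and 3797, and the DcpS shRNA libraries lay on either side of the controls. Sipa1l1 (SPAR, a RapGAP) had a fold change of −0.01 and the scaffold Cnksr2 one of 0.01, each with groups that overlapped. Baiap2 (IRSp53, which links membranes to actin) was lower in both DcpS shRNA libraries, 879 and 836 against 930.2 and 949.6, with a fold change of −0.13 (interval −0.27 to 0.003; limma, Benjamini-Hochberg adjusted p 0.279).

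Among genes that traffic AMPA receptors, Grip1 (chr10:119453830-120087261, plus strand) was lower. It read 852 and 846 in control cultures, against 740.5 and 655, and both DcpS shRNA libraries lay below the controls (means 849 ± 4.41 and 698 ± 60.5, SD, n = 2 each). The fold change was −0.29 (SE 0.07, interval −0.44 to −0.13; limma, Benjamini-Hochberg adjusted p 0.0282). The call ended without control 1 (0.0971), control 2 (0.0868) or DcpS shRNA 2 (0.159), and with DESeq2 (0.188). Grip2 read 283 and 322 against 236 and 234, with a fold change of −0.36 (SE 0.11, interval −0.58 to −0.14) that was not called (limma, Benjamini-Hochberg adjusted p 0.0562) but was with the replicate block in limma (0.0150) and edgeR (0.0241). Both GRIP genes were thus lower in both DcpS shRNA libraries, and 1 of the 2 passed with group as the only term.

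Nsf, the ATPase that disassembles SNARE complexes and binds an AMPA receptor subunit, had the highest level per kb of the group and read 1285 and 1319.9 against 1278 and 1157. Its DcpS shRNA values were lower, with a fold change of −0.10 (interval −0.23 to 0.03). Pick1, which binds the same receptor tails as GRIP proteins, read 463 and 458 against 517 and 497, higher in both DcpS shRNA libraries, with a fold change of 0.14 (interval −0.03 to 0.31). Gphn, the inhibitory scaffold gephyrin, read 1069 and 1121 against 1009 and 1055 (−0.09, interval −0.22 to 0.05). Akap5, which anchors protein kinase A and calcineurin near receptors, was among the genes with few reads (168 and 154 against 192 and 160) and overlapped between groups. None of these 4 was called by limma, edgeR or DESeq2, and none had an unadjusted limma p under 0.05.

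**Figure D3:**
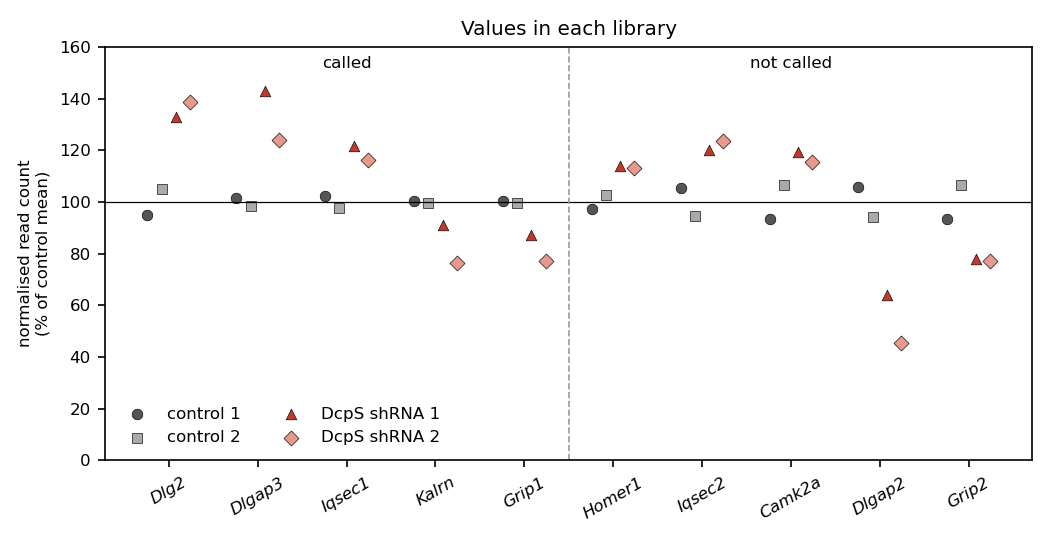
Normalised read count in each library as a percent of the control mean, for the 5 called genes (left of the dashed line) and the 5 genes with the next smallest p (right); circles and squares are controls, triangles and diamonds DcpS shRNA. In all 10 genes the DcpS shRNA libraries lie on the same side of both controls. In Kalrn, Grip1 and Dlgap2, and by less in Dlg2, Iqsec2 and Grip2, DcpS shRNA 2 lies further from the controls than DcpS shRNA 1. In Dlgap3, Iqsec1, Homer1 and Camk2a DcpS shRNA 1 lies further out.

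A list of 64 other postsynaptic density genes, scaffolds and signalling enzymes outside the 32, gave 6 higher and 6 lower calls, 18.8% of the list beside the 5.79% of all genes given above, with a median of 0.01. These shares were not matched for read number either. With a mean of at least 50 normalised reads required, limma called 10 genes of the list and 1032 of 13686 genes. Lin7c, a small PDZ protein that partners CASK, read 3860 and 3729 in control cultures, against 5014 and 5284. Arhgef7, a Rac exchange factor also called beta-PIX, read 5279 and 5065 against 6741 and 6304. Prkacb, a catalytic subunit of protein kinase A, read 3956 and 4029 against 3225 and 3140.2. In these 3 genes the groups stood well apart, with fold changes of 0.44, 0.33 and −0.33 (limma, Benjamini-Hochberg adjusted p 7.23e-05, 0.00105 and 0.000921), and the calls held in all 14 alternatives. Prkacb carried the word ACGTGCA in each of its 4 scanned 3′ UTRs, within a stretch of 10 bases shared with Dcps. The shared stretch was measured in no other gene of this list, so its length in Prkacb cannot be compared with that in other carriers. Of the 64 genes, 9 (14.1%) held a word in an annotated 3′ UTR, beside 8.0% of all tested genes scanned, without matching for 3′ UTR length. Among these carriers Lrrc7, Synpo, Magi3, Tiam1, Arhgap32, Camkk1 and Ppp3ca were not called.

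The other lower genes of that list were the scaffold Tanc2 (−0.24), the exchange factor Trio (−0.23), a relative of Kalrn, the kinase Camk4 (−0.46), and the kinase anchors Akap9 (−0.26) and Akap12 (−0.40). With control 1 left out, the limma adjusted p was 0.120 for Tanc2, 0.326 for Trio, 0.124 for Camk4 and 0.154 for Akap9. With control 2 left out it was 0.0944 for Tanc2 and 0.0594 for Akap12, and with DcpS shRNA 2 left out 0.106 for Camk4. Camk4 also carried a word, and Tanc2, Trio, Akap9 and Akap12 did not. The other higher genes were the actin regulator Wasf1 (0.23), the activity-induced gene Arc (0.92), the membrane-shaping protein Pacsin1 (0.36) and the calmodulin gene Calm2 (0.19). Arc had few reads, at 24.7 and 39.0 against 69.1 and 51.4, and its limma adjusted p was 0.297 with control 1 left out and 0.197 with DcpS shRNA 1 left out. For Wasf1 it was 0.125 with control 1 left out and 0.118 with control 2 left out. Pacsin1 and Calm2 had limma adjusted p of 0.153 and 0.244 with control 1 left out, 0.151 and 0.426 with control 2 left out, and 0.215 and 0.0604 with DcpS shRNA 2 left out. Both calls also ended with TMM scaling (limma adjusted p 0.0505 and 0.0550) and with edgeR (0.0510 and 0.0614), and that of Calm2 with the stricter filter (limma, 0.0520). DESeq2 called none of Wasf1, Arc, Pacsin1, Calm2 and Camk4.

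**Figure D4:**
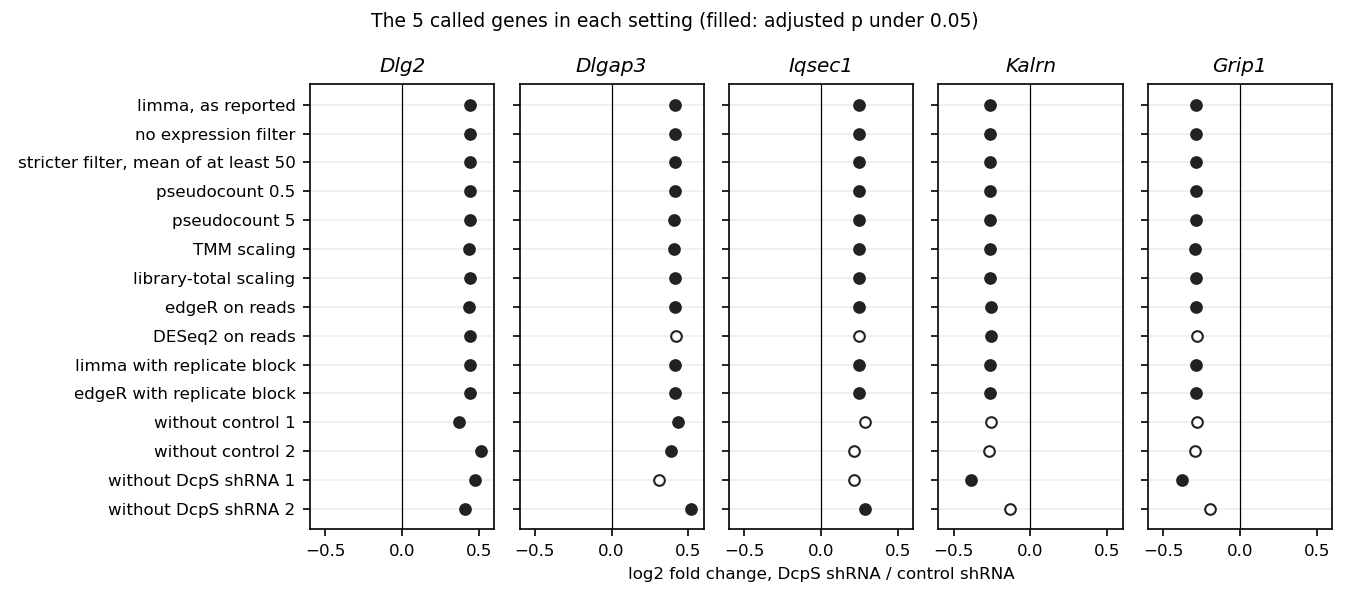
Log2 fold change of the 5 called genes as reported (top) and in each of 14 alternatives; filled points have an adjusted p under 0.05. No gene crosses 0 in any of them, Dlg2 is filled throughout, and every open point is a fit that leaves out 1 library or uses DESeq2.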

How the data were processed

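RNA-seq was analysed from 2 control shRNA and 2 DcpS shRNA cultures. The submitters' processing notes list HISAT2 2.2.0, SAMtools 1.3.1, Picard, featureCounts and DESeq2 with the build GRCm38, without their roles; the annotation and the strand setting were not given in the sources used here. Deposited values are a signal scaled by the authors: each was a whole multiple of its column's smallest positive value, so reads were recovered by division, with 100% of values whole (tolerance 0.001).

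Because the values are not raw counts, limma 3.58.1 was run on log2(value + 1) with the group term alone, eBayes set to trend and robust, and Benjamini-Hochberg adjustment over all 18110 genes kept by edgeR's filterByExpr (minimum count 10). This scale understates changes of low genes. With 2 against 2, an exact two-sided permutation test cannot go below 0.333, so p-values rest on the spread pooled over genes. Only the limma fit with the group term was tried on simulated data, with a fixed dispersion, and the alternatives were not. Alternatives were 2 filters, 2 pseudocounts, 2 scalings, edgeR 4.0.16, DESeq2 1.42.0, a replicate block in limma and edgeR, and leaving out each library.

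All 32 genes are named, grouped by role, and values per library are given for all but Sipa1l1 and Cnksr2. Coordinates, exon lengths and 3′ UTRs come from GENCODE M21. The 32 genes, the lists and the 7-base words were chosen with earlier results of these data known. Paralogs such as the CaMKII or calmodulin genes may share reads, since the handling of reads that fit several genes is not given.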

Additional observations from a re-analysis of the deposited data

How the results depend on the processing

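Dlg2 was called in all 14 alternatives; calls were lost in 2 for Dlgap3, 3 for Kalrn, and 4 each for Iqsec1 and Grip1. No called gene of the 32 changed sign, and 9 uncalled ones near 0 did in at least 1 alternative. With DESeq2 the called genes were 448 in all, where limma had 1048, with 1 of the 32 higher and 1 lower. Leaving out each library in turn gave 594 to 1439 called genes, 1 to 3 of the 32 higher and 0 to 5 lower, and a median of the 32 between −0.053 and 0.024. The 5 lower genes without DcpS shRNA 1 were Dlg1, Dlgap1, Dlgap2, Kalrn and Grip1. The replicate numbers of the titles may not mark shared preparations: deviations of same-numbered libraries correlated at r = 0.04 across genes. With the replicate block limma called 1626 genes, with 6 of the 32 higher and 4 lower (Homer1, Camk2a, Iqsec2, Dlgap2 and Grip2 beside the 5 reported). With the block, edgeR called 4 of the 32 higher and 4 lower. The fits without one library leave 1 group with a single sample, which is assumed to vary like the other group. Scaling moved the median of all genes by less than 0.1 on the log2 scale. Depth limits Dlgap2 most, with 19 to 52 reads.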
